A study of Homo sapiens with 15 samples.

Results

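The genes described here build the lysosome. They are 44 genes named by symbol, of 17237 genes measured in either of 2 human clear cell renal cell carcinoma (ccRCC) lines, and every one of the 44 was found in the data of both lines. They comprise 25 hydrolases with their cofactors and soluble partners, 6 membrane proteins, 10 subunits of the proton pump, and the 3 transcription factors TFEB, TFE3 and MITF. The list was made from gene function and not from the values, although results of these data were known when it was drawn up.

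Lysosomes are acidic organelles in which proteins, lipids, glycans and whole organelles are broken down. A vacuolar ATPase in their membrane pumps protons inward. Its cytosolic V1 sector splits ATP and its membrane V0 sector carries the protons. The hydrolases inside work best at low pH, and the limiting membrane holds heavily glycosylated proteins, cholesterol transporters and ion channels. TFEB, TFE3 and MITF bind related DNA letters in the promoters of many of these genes and can switch them on together. Clear cell renal carcinoma cells are known for storing lipid, which the lysosome helps to turn over.

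RNA was sequenced from CAKi-1, a ccRCC line with wild-type VHL, and from 786-O, a ccRCC line known to lack functional VHL. In each line, cells with wild-type ANGPTL4 (WT) were compared with ANGPTL4 knockout cells (A4KO), which were made with CRISPR-Cas9 and combined from clones that had lost ANGPTL4 mRNA, to learn which transcripts change with the loss of this secreted lipase inhibitor. CAKi-1 gave 9 libraries, 4 of WT and 5 of A4KO cells, and 786-O gave 6, 3 of each genotype, from cells grown in medium with serum and harvested in log phase with no other treatment. WT cells of 786-O were likewise a mixture of clones, those that had kept the transcript. The sources differ on the WT cells of CAKi-1, naming either parental cells or such clones, and they name either DMEM or RPMI as the medium, so a difference between selected clones and unselected cells cannot be told apart from one of genotype in that line. The A4KO cells of both lines and the WT cells of 786-O were mixtures of clones, and differences between clones cannot be told apart from those of genotype. Nothing in the sources says that the replicates were separate cultures, and the p-values measure only the spread between these libraries.

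Values are TPM, the usual measure of RNA-seq abundance, a share of all transcripts in a library that is corrected for transcript length, so genes can be compared with each other. Fold changes are given as log2 of TPM + 1, A4KO minus WT, with the standard error (SE). This scale understates the change of genes with few transcripts. A gene passed when its limma p, adjusted over all genes of the line, was at most 0.05. In bulk RNA, fewer cells with a transcript and less of it per cell cannot be told apart.

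ANGPTL4 itself was lower in every A4KO library. The CAKi-1 WT libraries held 74.9, 83.2, 86.9 and 71.7 TPM of it, against 7.26, 2.87, 2.87, 6.47 and 2.9 TPM in A4KO replicates 1 to 5. The 786-O WT libraries held 20.6, 17.6 and 18.1 TPM, against 2.19, 2.17 and 1.86 TPM in A4KO. Replicates 1 and 4 of CAKi-1 A4KO held more of it than the other A4KO libraries and differed from them across the genome. Of all 16296 genes, 33.9% were higher and 26.1% were lower in those libraries than in replicates 2, 3 and 5. Among the 44 lysosomal genes, 26 (59.1%) were higher and 7 (15.9%) were lower in replicates 1 and 4, so values without them are given beside the CAKi-1 results that they move. Of 7 markers of kidney epithelium and ccRCC, 5 were in the CAKi-1 data, without PAX2 and CA9, and all 7 in the 786-O data. Mostly VIM, KRT8 and KRT18, they summed to 5267 to 6326 TPM in CAKi-1 WT, to 2735 to 3665 TPM in its A4KO cells, and to 5704 to 5906 TPM and 4255 to 4306 TPM in 786-O. PAX8, which defines the lineage, stood at 143 to 198 TPM in CAKi-1 WT and 157 to 230.1 TPM in A4KO, and was lower in 786-O A4KO (148 to 155 TPM against 225 to 238 TPM). CDH6 was higher in CAKi-1 A4KO, at 15.4 to 19.3 TPM against 5.94 to 11.3 TPM in WT, and lower in 786-O A4KO, at 43 to 44.4 TPM against 211 to 218 TPM. In 786-O, PAX2 was also higher in A4KO (38.4 to 44.1 TPM against 10.6 to 11.4 TPM) and CA9 lower (0.116 to 0.469 TPM against 6.65 to 8.1 TPM). In CAKi-1, KRT8 ranged from 1223 to 1702 TPM in WT and from 265 to 566 TPM in A4KO. PTPRC, the defining leukocyte marker, stayed under 1 TPM in every library. Fibroblast markers, mainly COL1A1 and PDGFRB, summed to 20.7 to 29.8 TPM in CAKi-1 WT and 46.7 to 70.1 TPM in A4KO, and to 3.29 to 5.4 TPM and 7.78 to 10.1 TPM in 786-O. There PDGFRB alone was higher, at 3.47 to 5.63 TPM against 0.354 to 0.491 TPM in WT, while COL1A1 overlapped (3.58 to 4.35 TPM against 2.66 to 4.82 TPM) and DCN stayed under 1 TPM. Of 3 endothelial markers only PECAM1 was in the data, at 0.209 to 0.555 TPM in CAKi-1 WT and 1.54 to 6.17 TPM in A4KO, and the other way in 786-O, at 0.85 to 1.44 TPM and 0.411 to 0.563 TPM. The part of these shifts in the lysosomal results was not tested.

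The promoters of some of these genes share the letters CACGTG, which read the same on both strands and which TFEB, TFE3 and MITF are known to bind. Promoters of 31 of the 44 genes were found in RefSeq (GRCh38.p14, 250 bases before to 50 bases after the start). CACGTG stood in 9 of them (29.0%), against 7.43% of 27305 promoters in the table and 9.58% of those of genes measured in both lines. The longer TCACGTGA, which contains CACGTG, stood in 5 (16.1%), against 1.04% of all promoters and 1.79% of those measured in both lines. The following 30-base windows show 1 TCACGTGA from each of these 5 promoters, the one farthest before the start. The promoters are those of hydrolases, membrane proteins and the pump. Capitals mark CACGTG.
GAA, chr17:80101493-80101522, plus strand: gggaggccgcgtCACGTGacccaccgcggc
CTSA, chr20:45891298-45891327, plus strand: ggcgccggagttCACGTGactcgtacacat
LAMP1, chr13:113297199-113297228, plus strand: gacccgcgggatCACGTGacgcccgggcgc
MCOLN1, chr19:7522571-7522600, plus strand: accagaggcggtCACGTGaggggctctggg
ATP6V0D1, chr16:67481199-67481228, minus strand: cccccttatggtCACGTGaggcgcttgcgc
The letters begin 76 bases before the RefSeq start of GAA, 25 before that of CTSA, 28 before that of LAMP1, 41 before that of MCOLN1 and 59 before that of ATP6V0D1. A second TCACGTGA in GAA, LAMP1 and MCOLN1 is not shown, and its CACGTG begins 31, 1 and 14 bases before the start. Of the windows shown, all but that of CTSA lie upstream of the whole gene as GENCODE annotates it, and the CTSA window lies within that gene's span. LAMP1 held 6 copies of CACGTG, while CTSA, CTSF, GAA and MCOLN1 held 2 each and CTSD, NEU1, CD63 and ATP6V0D1 held 1 each. Of the 9 genes with the letters, 1 was higher and 2 were lower in CAKi-1 A4KO, and 5 were higher and 3 lower in 786-O A4KO. Of the 22 genes whose promoter lacked them, 7 were higher and 5 lower in CAKi-1, and 9 were higher and 5 lower in 786-O. Without replicates 1 and 4, the CAKi-1 counts were 1 higher and 3 lower with the letters, and 6 higher and 8 lower without them. Of all genes, 17.9% were higher and 21.1% lower in CAKi-1 A4KO (16.7% and 22.2% without those replicates), and 27.5% were higher and 33.5% lower in 786-O A4KO. A match of letters is a description of the sequence and not a binding site.

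Across the 44 genes, changes were common but small. In CAKi-1, 17 were higher and 9 lower in A4KO, and 18 did not pass. The 26 that passed are 59.1% of the genes, where 39.0% of all genes measured in that line passed, 17.9% higher and 21.1% lower. Without replicates 1 and 4, 10 were higher and 14 lower, and the share of all genes that passed was 38.8%, with 16.7% higher and 22.2% lower. The count of higher genes also depended on single libraries. It fell to 7 without WT replicate 3, to 8 without WT replicate 1 or 2 and to 9 without A4KO replicate 1. It fell to 10 without A4KO replicate 2 or 4 and to 11 without WT replicate 4. Calls were lost over all genes too. Of 16296 genes, 2916 were higher with all libraries, 2297 without WT replicate 3 and 2297 to 3019 with each library left out. Without WT replicate 3, the share of the 44 genes that were higher was close to that of all genes. In 786-O, 19 were higher and 10 lower and 15 did not pass, so that 65.9% passed where 61.0% of all genes did, 27.5% higher and 33.5% lower. The share in 786-O was therefore close to that of all genes. At a change of at least 1 on the log2 scale, 0 of the 44 were called in CAKi-1 and 1, CTSS, in 786-O, against 3.33% and 7.62% of all genes. CTSF, a scarce transcript, would also reach that size in 786-O with a pseudocount of 0.1 (-1.73, adjusted p = 2.87e-04) in place of 1 (-0.85). The median log2 fold change was 0.125 in CAKi-1, where that of all genes was -0.008, and 0.066 in 786-O, where that of all genes was -0.03. The median in CAKi-1 fell to 0.026 without replicates 1 and 4. Several changes also shrank, grew or turned when the shift of neighbouring genes was taken off, as described with the chromosomes.

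Of the 10 subunits of the proton pump, 4 passed in opposite directions in the lines and 2 fell in both. Of the 15247 genes measured in both lines, 16.0% passed in opposite directions and 1834 genes in the same direction, higher or lower. With neighbouring genes taken off, 7 subunits passed in opposite directions and 0 fell in both, against 13.9% and 5.41% of all genes. In CAKi-1 A4KO, 6 of the 10 subunits were lower and 2 higher, and these counts were the same without replicates 1 and 4. In 786-O A4KO, 4 were higher and 2 lower. The share of subunits that passed was 80.0% in CAKi-1, against 39.0% of all genes, and 60.0% in 786-O, against 61.0%. Summed over the 10 subunits, pump transcripts stood at 989.6, 987, 980.2 and 1011 TPM in the CAKi-1 WT libraries and at 804, 815, 823, 813 and 792 TPM in A4KO. The sum went the other way in 786-O, from 856, 819 and 821 TPM in WT to 1004, 1020 and 1027 TPM in A4KO. Neither pair of groups overlapped, and A4KO replicates 1 and 4 of CAKi-1 lay among the other A4KO libraries. Most of the change in the sums came from ATP6V0C and ATP6V0D1. The median log2 fold change of the subunits was -0.261 in CAKi-1 and 0.12 in 786-O.

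**Figure D1:**
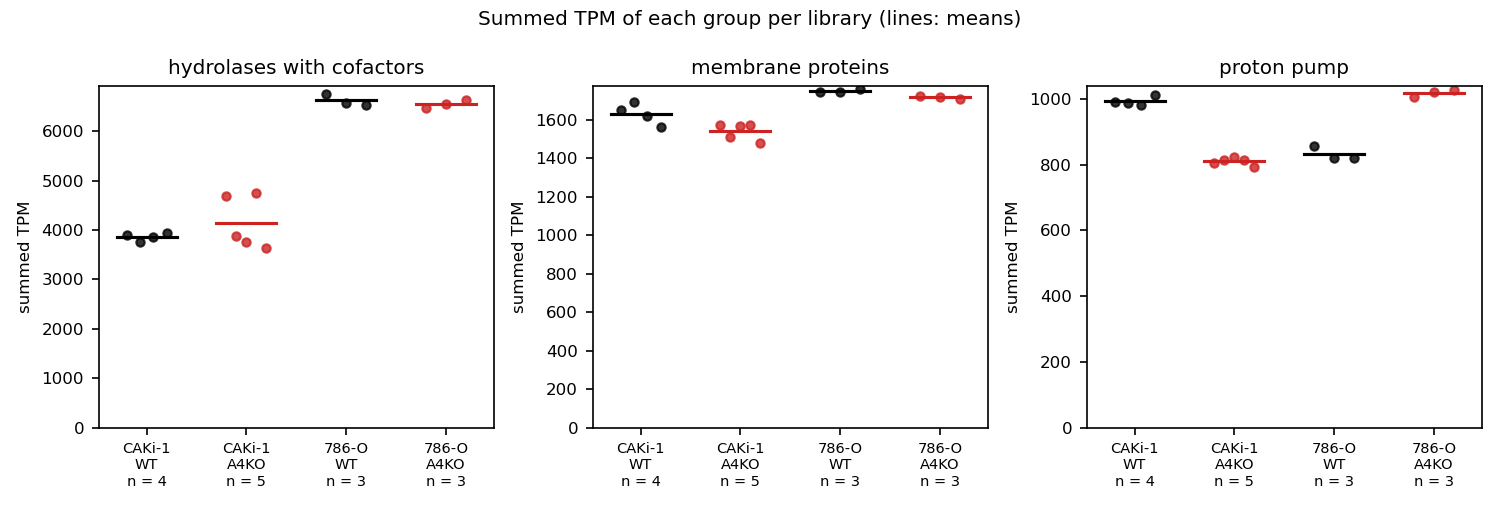
Summed TPM of the hydrolases with cofactors, the membrane proteins and the proton pump subunits (vertical axes from 0), with a point for each library and a line at each group mean. Pump transcripts were lower in CAKi-1 A4KO (792 to 823 TPM against 980.2 to 1011 TPM in WT) and higher in 786-O A4KO (1004 to 1027 TPM against 819 to 856 TPM), while the CAKi-1 A4KO hydrolase sums separated into replicates 1 and 4 and the rest.

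ATP6V0C encodes the proteolipid of the membrane ring. It stood at 362, 346, 359 and 372 TPM in CAKi-1 WT and at 235, 245, 250.1, 239 and 244 TPM in A4KO, and at 189, 165 and 175 TPM in 786-O WT and 319.9, 326 and 320.4 TPM in A4KO. The groups did not overlap in either line, which held for 35.9% of all genes in CAKi-1 and 66.9% in 786-O. The log2 fold change was -0.57 in CAKi-1 (SE 0.043, adjusted p = 2.82e-05) and 0.87 in 786-O (SE 0.056, adjusted p = 3.60e-05), and the difference between the lines was -1.43 (SE 0.069, adjusted p = 1.36e-09). GENCODE annotates 4 pseudogenes named after ATP6V0C, and among the other members 3 after ATP6V1E1, 6 after CTSL and 18 after GUSB. How reads shared with them were divided is not given in the sources used here, so values of these 4 genes are uncertain to that extent. ATP6V0D1, which joins the ring to the V1 rotor, stood at 140.0, 148, 139 and 133 TPM in CAKi-1 WT and at 92.9, 98.8, 100.1, 90 and 91.3 TPM in A4KO. It rose in 786-O, from 85.7, 82 and 79.6 TPM to 123, 125 and 127 TPM. Its log2 fold changes were -0.56 in CAKi-1 (SE 0.053, adjusted p = 8.12e-05) and 0.60 in 786-O (SE 0.041, adjusted p = 4.82e-05), which differed by -1.16 (adjusted p = 1.90e-08). With neighbours taken off, as described with the chromosomes, ATP6V0D1 was at -0.50 in CAKi-1 and 0.24 in 786-O. ATP6V0C was then at -0.32 and 0.62. ATP6V0A1, which lines the proton path, did not pass in either line and stood between 13.9 and 23.2 TPM in all libraries.

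Among the V1 subunits, ATP6V1A carries the catalytic sites. It fell in CAKi-1 from 26.6 ± 0.8 TPM (SD, n = 4) to 21.6 ± 1.17 TPM (SD, n = 5), a log2 fold change of -0.29 (SE 0.052, adjusted p = 0.00246). In 786-O it rose from 24.9 ± 1.44 TPM (SD, n = 3) to 34.2 ± 1.44 TPM (SD, n = 3), a log2 fold change of 0.44 (SE 0.056, adjusted p = 7.00e-04). ATP6V1H, a regulatory subunit, followed the same course, with -0.23 in CAKi-1 (SE 0.042, adjusted p = 0.00243) and 0.34 in 786-O (SE 0.045, adjusted p = 8.44e-04). Between the lines, the effects differed by -0.73 for ATP6V1A (adjusted p = 3.41e-06) and by -0.57 for ATP6V1H (adjusted p = 3.10e-06). The stalk subunits ATP6V1D and ATP6V1E1 fell in both lines. ATP6V1D, a part of the central rotor, changed by -0.30 in CAKi-1 (SE 0.042, adjusted p = 5.93e-04) and by -0.52 in 786-O (SE 0.041, adjusted p = 8.36e-05). ATP6V1E1, a part of the outer stalk, changed by -0.37 (SE 0.05, adjusted p = 5.10e-04) and by -0.19 (SE 0.035, adjusted p = 0.00339). In 786-O, however, the genes around ATP6V1D and ATP6V1E1 fell further than they did, as described with the chromosomes.

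The subunits that rose in CAKi-1 were ATP6V1B2, the partner of the catalytic subunit, and ATP6AP1, an accessory protein needed for pump assembly. ATP6V1B2 went from between 50 and 58 TPM in WT to between 63.8 and 67.1 TPM in A4KO (log2 fold change 0.28, SE 0.055, adjusted p = 0.00381). ATP6AP1 went from between 81.6 and 84.1 TPM to between 96 and 118 TPM (log2 fold change 0.34, SE 0.071, adjusted p = 0.00478), with its highest values of 116 and 118 TPM in replicates 1 and 4. Without those libraries it remained higher, by 0.25 (adjusted p = 0.00298). ATP6V1B2 and ATP6AP1 did not pass in 786-O, at 0.08 and 0.04, and the effects differed between the lines by 0.20 (adjusted p = 0.0361) and 0.30 (adjusted p = 0.016). ATP6V1C1, which helps V1 and V0 to join, did not pass in either line.

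**Figure D2:**
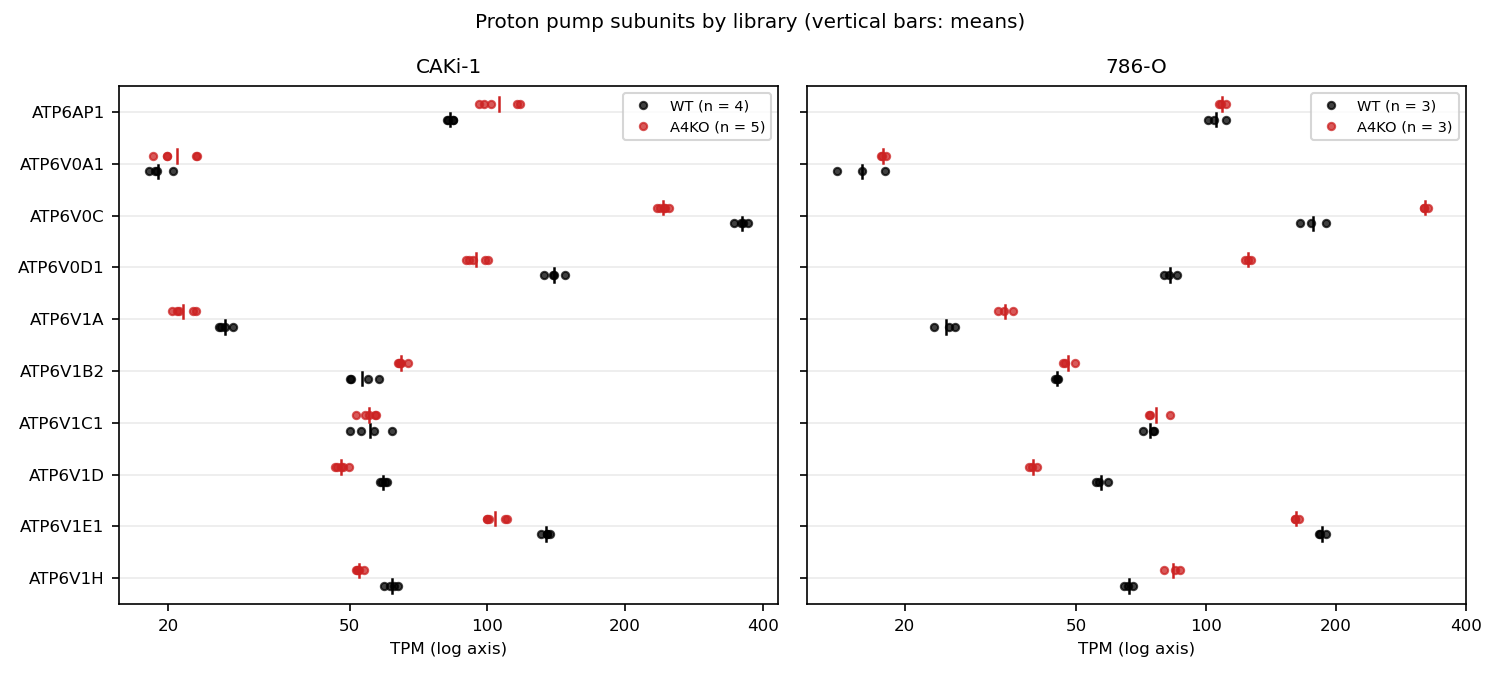
TPM of the 10 proton pump subunits (log horizontal axis), with a point for each library and a vertical bar at each group mean, for CAKi-1 and 786-O. ATP6V0C, ATP6V0D1, ATP6V1A and ATP6V1H lay lower in A4KO than in WT in CAKi-1 and higher in 786-O, with no overlap between the groups.

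Of the 25 hydrolases and cofactors, 12 were higher in CAKi-1 A4KO, 1 was lower and 12 did not pass, where 17.9% of all genes were higher and 21.1% lower. Without replicates 1 and 4, 7 were higher and 5 lower, against 16.7% and 22.2% of all genes, and the median log2 fold change was 0.118 rather than 0.205. Summed over the 25 genes, the WT libraries held 3899, 3758, 3856 and 3931 TPM and the A4KO libraries held 4694, 3886, 3756, 4750 and 3645 TPM. Replicates 1 and 4 thus lay above every WT library, while replicates 2, 3 and 5 overlapped with WT. For 17 of the 25 genes (68.0%), both replicates 1 and 4 lay above replicates 2, 3 and 5, against 33.9% of all genes. Leaving out any WT library also cost calls. Without WT replicate 3, those of CTSB, CTSK, CTSO, CTSS, HEXA, GUSB, NAGLU and ASAH1 were lost. The 4 hydrolase genes that remained higher were CTSC, CTSZ, GAA and PPT1. Of all 16296 genes, 2297 were higher in that fit, against 2916 with all libraries. The share of hydrolases that were higher was then close to that of all genes. Without WT replicate 1 or 2, 5 hydrolase genes were higher. The fold changes moved little without WT replicate 3, to 0.21 for CTSB, 0.42 for CTSO, 0.80 for CTSS and 0.21 for HEXA, with a median of 0.207 for the 25 genes. In 786-O, 11 hydrolase genes were higher and 6 lower, so that 68.0% passed where 61.0% of all genes did. Their median was 0.037, with sums of 6535 to 6759 TPM in WT and 6475 to 6623 TPM in A4KO.

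GAA, the acid glucosidase that digests glycogen and that is deficient in Pompe disease, had the highest log2 fold change of the 44 genes in CAKi-1. It stood at 46.1, 44.1, 44.8 and 41.6 TPM in WT cells and at 123, 69.8, 63.4, 120.3 and 61.6 TPM in A4KO. All A4KO libraries lay above all WT libraries, and replicates 1 and 4 lay far above the rest. The log2 fold change was 0.90 over all libraries (SE 0.22, adjusted p = 0.011) and 0.54 without replicates 1 and 4 (SE 0.06, adjusted p = 5.03e-04). In 786-O GAA stood at 22.5, 22.5 and 20.8 TPM in WT cells and at 22.7, 21.6 and 23.7 TPM in A4KO, which overlapped (log2 fold change 0.05, adjusted p = 0.462). The effects differed between the lines by 0.86 (SE 0.29, adjusted p = 0.0227) over all libraries, which include replicates 1 and 4, where the CAKi-1 rise was largest.

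The protein-digesting cathepsins moved in several directions. CTSS, cathepsin S, a cysteine protease best known from antigen-presenting cells, was higher in both A4KO groups. In 786-O it rose from 6.06, 5.81 and 7.57 TPM to 21.8, 24 and 22.1 TPM, a log2 fold change of 1.67 (SE 0.095, adjusted p = 2.14e-05). In CAKi-1 the WT libraries were spread, at 27.2, 26, 38.2 and 56.8 TPM, and overlapped with the A4KO libraries at 72.3, 52, 50.6, 79.8 and 52.6 TPM. The log2 fold change there was 0.76 (SE 0.24, adjusted p = 0.0314), and the call was lost without replicates 1 and 4 (0.54, adjusted p = 0.131). Beside CTSS, the 3 leukocyte and macrophage markers measured summed to between 1.57 and 3.24 TPM in CAKi-1 WT and between 3.07 and 5.23 TPM in A4KO, mostly CSF1R. In 786-O they summed to between 3.85 and 4.04 TPM in WT and between 0.99 and 1.81 TPM in A4KO, the opposite direction to CTSS. CTSH, an aminopeptidase, changed in opposite directions. It fell in CAKi-1 from 36.6, 37.3, 36.7 and 31.2 TPM to 25.7, 26.4, 22.8, 24.4 and 21.2 TPM (log2 fold change -0.54, SE 0.079, adjusted p = 8.28e-04), and rose in 786-O from 17.3, 18.2 and 17.3 TPM to 35.4, 34.6 and 34.1 TPM (0.94, SE 0.038, adjusted p = 6.18e-06). This gave the widest difference between the lines among the 44 genes on the scale used here, -1.48 (SE 0.1, adjusted p = 6.40e-08). With neighbours taken off, the difference of CTSF was wider, at 1.44 (adjusted p = 4.99e-04) against -1.33 for CTSH (adjusted p = 2.48e-07).

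CTSB and CTSZ took the reverse course, higher in CAKi-1 A4KO and lower in 786-O A4KO. CTSB, an abundant cysteine protease, stood at 468 ± 20.8 TPM (SD, n = 4) in CAKi-1 WT and 532 ± 37.2 TPM (SD, n = 5) in A4KO (0.18, SE 0.063, adjusted p = 0.0463). That call was lost without replicates 1 and 4 (0.12, adjusted p = 0.138). In 786-O it fell from 305, 289 and 292 TPM to 198, 199 and 188 TPM (-0.60, SE 0.042, adjusted p = 5.42e-05). CTSZ, a carboxypeptidase, rose in CAKi-1 from 164 ± 2.39 TPM (SD, n = 4) to 201 ± 11.1 TPM (SD, n = 5) and fell in 786-O from 709.9 ± 3.6 TPM to 595 ± 7.48 TPM (SD, n = 3 each). The CTSZ changes were 0.29 (SE 0.052, adjusted p = 0.00221) and -0.25 (SE 0.032, adjusted p = 7.07e-04).

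CTSC, which activates granule serine proteases, was higher in both lines, by 0.35 in CAKi-1 (SE 0.054, adjusted p = 0.00115) and by 0.11 in 786-O (SE 0.035, adjusted p = 0.0317), where the call was lost when any of the 6 libraries was left out (highest adjusted p over all alternatives 0.109). CTSK, the collagen-digesting protease of osteoclasts, and CTSO, a little-studied relative, rose in CAKi-1 by 0.52 (SE 0.15, adjusted p = 0.0244) and 0.42 (SE 0.12, adjusted p = 0.0261) and did not pass in 786-O. Without replicates 1 and 4 they were higher by 0.29 (adjusted p = 0.0184) and 0.23 (adjusted p = 0.0109). CTSK was scarce, at 3.3 to 7.57 TPM in CAKi-1 and 1.5 to 1.94 TPM in 786-O. In 786-O the aspartic protease CTSD, the most abundant of the cathepsins in that line, fell from 2605, 2494 and 2491 TPM to 1963, 1966 and 2008 TPM (-0.35, SE 0.036, adjusted p = 2.70e-04). In CAKi-1 CTSD stood at 545 and 541 TPM in replicates 1 and 4 and at 428, 404 and 376 TPM in replicates 2, 3 and 5, around the WT range of 445 to 467 TPM. It did not pass there over all libraries (-0.01, adjusted p = 0.937) and was lower without replicates 1 and 4 (-0.19, adjusted p = 0.0284), but higher over all libraries with neighbouring genes taken off (0.34, adjusted p = 0.0379). CTSL, a cysteine endopeptidase, rose in 786-O by 0.37 (SE 0.039, adjusted p = 2.92e-04; 0.05 and adjusted p = 0.402 with neighbours taken off) and did not pass in CAKi-1 (-0.19, adjusted p = 0.0504). CTSA, which shields neuraminidase and beta-galactosidase from degradation, rose in 786-O from 205 ± 4.73 TPM to 298 ± 5.94 TPM (SD, n = 3 each; 0.54, SE 0.037, adjusted p = 4.86e-05).

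CTSF and TPP1 fell in 786-O. TPP1, the tripeptidyl peptidase that is deficient in a childhood form of Batten disease, went from 61.1, 58.5 and 63.2 TPM to 34.4, 37.4 and 32.1 TPM (-0.80, SE 0.064, adjusted p = 9.06e-05). CTSF was close to the floor of the measurement, at 1.38, 1.51 and 1.62 TPM in WT and 0.315, 0.359 and 0.486 TPM in A4KO (-0.85, SE 0.061, adjusted p = 5.71e-05). Neither passed in CAKi-1, where their log2 fold changes of 0.47 and 0.42 came with SEs of 0.20 and 0.16 and with high values in replicates 1 and 4, without which they were 0.15 (adjusted p = 0.138) and 0.19 (adjusted p = 0.0979). With neighbours taken off, both passed as higher in CAKi-1, by 0.70 (adjusted p = 0.0215) and 0.68 (adjusted p = 0.0063). The effects differed between the lines by 1.32 for CTSF (adjusted p = 7.94e-04) and 1.22 for TPP1 (adjusted p = 2.51e-04).

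**Figure D3:**
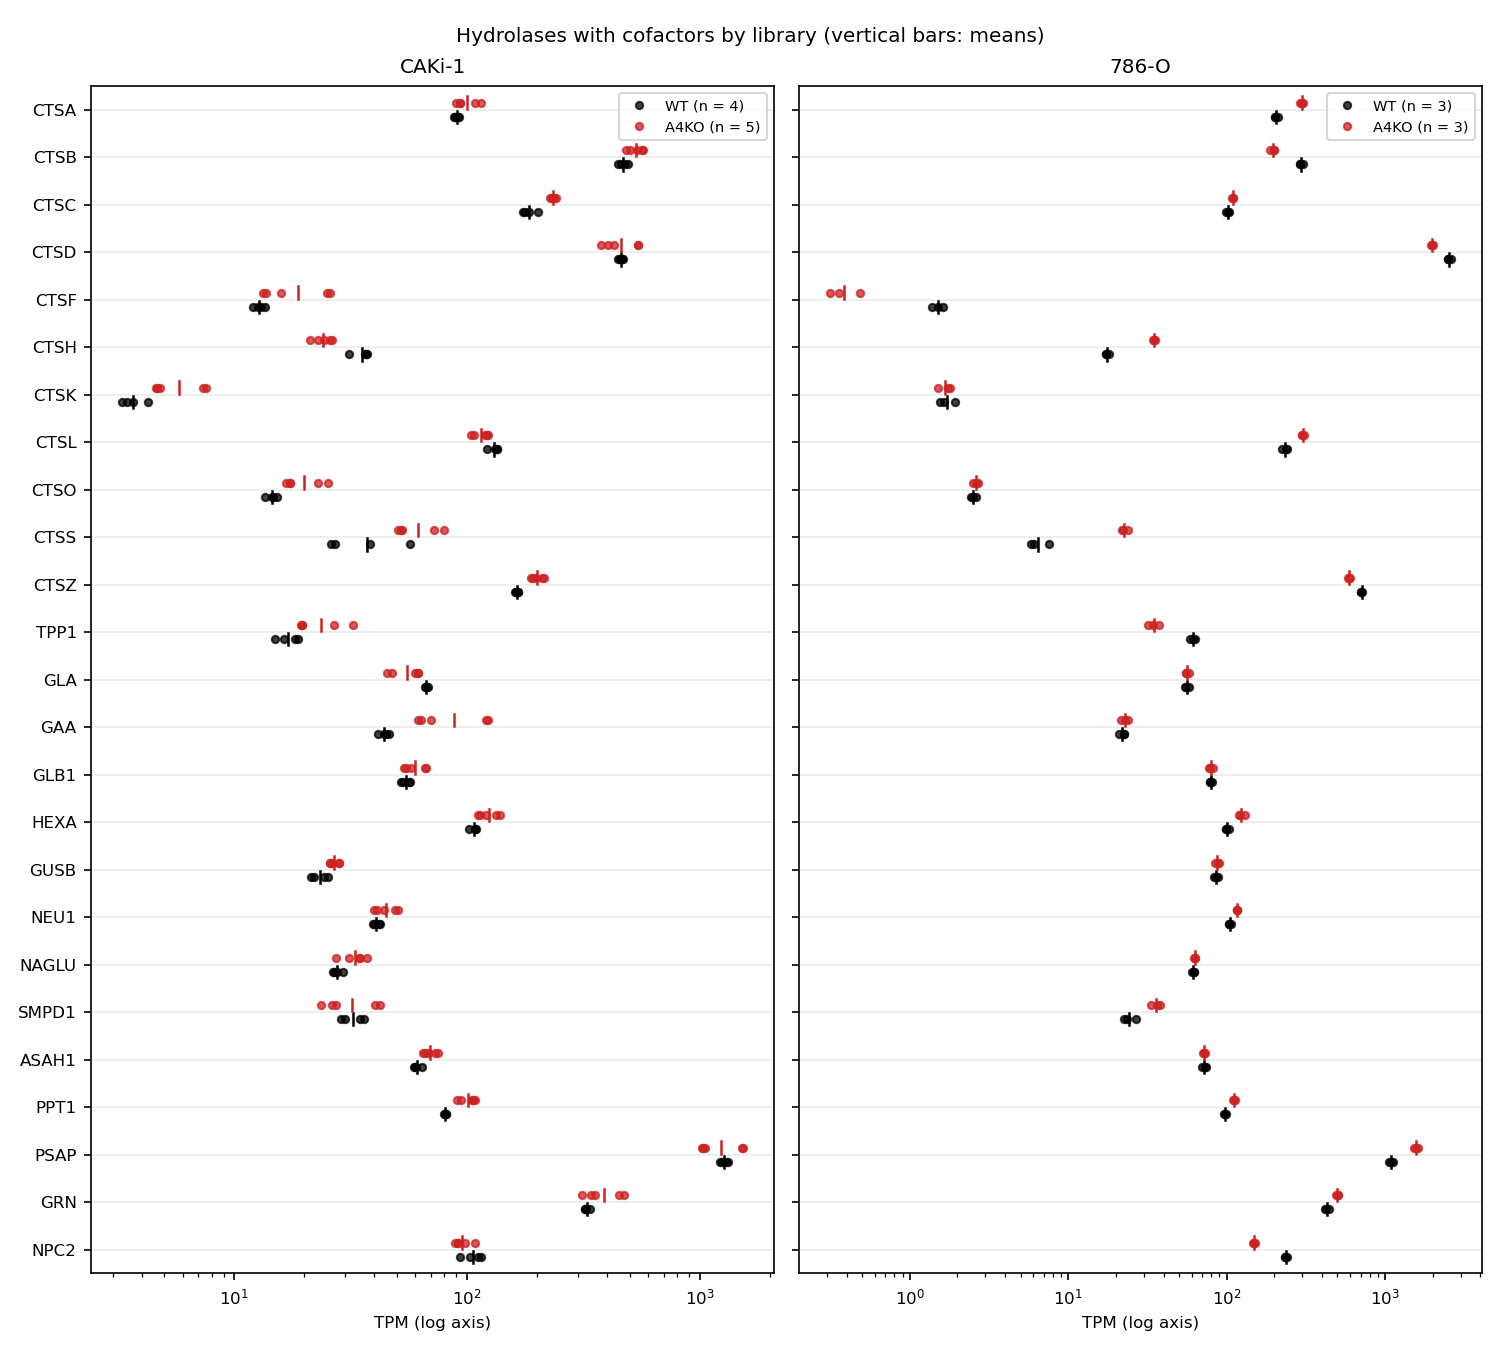
TPM of the 25 hydrolases with cofactors (log horizontal axis), with a point for each library and a vertical bar at each group mean, for CAKi-1 and 786-O. In CAKi-1 the A4KO points of GAA split into replicates 1 and 4 (123 and 120.3 TPM) and the rest (61.6 to 69.8 TPM), a split also seen for PSAP, while in 786-O the replicates lay close together.

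Enzymes that cut sugars and lipids mostly showed small changes. In CAKi-1, HEXA (the alpha chain of beta-hexosaminidase), GUSB (beta-glucuronidase), NAGLU (which trims heparan sulfate) and ASAH1 (acid ceramidase) were higher in A4KO by 0.18 to 0.24, with adjusted p between 0.0289 and 0.0494. Of these, only GUSB passed without replicates 1 and 4 (0.23, adjusted p = 0.0387). PPT1, the palmitoyl thioesterase deficient in infantile Batten disease, rose from 80.6 ± 0.606 TPM (SD, n = 4) to 101 ± 7.75 TPM (SD, n = 5), by 0.32 (SE 0.062, adjusted p = 0.0035). It was lower in replicates 1 and 4 (94.5 and 90.9 TPM) than in the other A4KO libraries (105 to 108 TPM), and rose in 786-O as well, by 0.18 (SE 0.034, adjusted p = 0.00397). HEXA rose in 786-O by 0.30 (SE 0.047, adjusted p = 0.00186; 0.08 and adjusted p = 0.176 with neighbours taken off), as did NEU1, a sialidase, by 0.15 (SE 0.032, adjusted p = 0.00646). SMPD1, acid sphingomyelinase, rose in 786-O from 26.9, 22.4 and 23.6 TPM to 33.2, 37.8 and 36.5 TPM (0.54, SE 0.082, adjusted p = 0.00147). In CAKi-1 it did not pass over all libraries (-0.05, adjusted p = 0.845) and was lower without replicates 1 and 4 (-0.31, adjusted p = 0.0315). GLA and GLB1, which remove galactose from lipids and glycans, passed in neither line over all libraries. GLA stood below every WT library in all CAKi-1 A4KO libraries (45.2 to 61.8 TPM against 65.8 to 67.7 TPM), with a log2 fold change of -0.28 (adjusted p = 0.0535), and passed without replicates 1 and 4 (-0.13, adjusted p = 0.0364).

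The soluble partners of the hydrolases were abundant. PSAP, the precursor of the saposins that present lipids to hydrolases, stood at 1118, 1091 and 1060 TPM in 786-O WT and at 1512, 1567 and 1603 TPM in A4KO, a rise of 0.52 (SE 0.041, adjusted p = 8.54e-05). In CAKi-1 the A4KO libraries fell on either side of WT. PSAP stood at 1536 and 1524 TPM in replicates 1 and 4 and at 1056, 1035 and 1027 TPM in replicates 2, 3 and 5, against 1223 to 1331 TPM in WT. It did not pass over all libraries (-0.07, adjusted p = 0.728) and was lower without replicates 1 and 4 (-0.29, adjusted p = 0.00218). GRN, progranulin, stood in CAKi-1 at 322 to 338 TPM in WT, at 452 and 474 TPM in A4KO replicates 1 and 4 and at 356, 343 and 311 TPM in replicates 2, 3 and 5. It did not pass there with replicates 1 and 4 (0.22, adjusted p = 0.175) or without them (0.04, adjusted p = 0.613), and rose in 786-O by 0.22 (SE 0.038, adjusted p = 0.00262; -0.01 and adjusted p = 0.789 with neighbours taken off). NPC2, which hands cholesterol to NPC1, fell in 786-O from 239.5, 235 and 232 TPM to 150.5, 148 and 147 TPM (-0.66, SE 0.034, adjusted p = 1.46e-05) and did not pass in CAKi-1 (-0.14, adjusted p = 0.188). Its neighbours fell further in 786-O, as described with the chromosomes.

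Of the 6 membrane proteins, 3 were higher and 1 lower in CAKi-1 A4KO (1 and 1 without replicates 1 and 4), and 4 were higher and 2 lower in 786-O A4KO, where 39.0% and 61.0% of all genes passed. With neighbours taken off, 2 were higher and 2 lower in 786-O, where 29.3% of all genes were higher and 29.8% lower. The median log2 fold change of the 6 there was -0.082 in place of 0.267. LAMP1 and LAMP2, the glycoproteins that coat the inner face of the membrane, parted in 786-O, although the rise of LAMP1 was no larger than that of its neighbours (-0.08 with them taken off, adjusted p = 0.116). LAMP1 stood at 169, 169 and 172 TPM in WT cells and at 262, 267 and 261 TPM in A4KO (0.63, SE 0.032, adjusted p = 1.46e-05). LAMP2, which also takes part in chaperone-mediated autophagy, stood at 240.2, 235 and 229 TPM in WT cells and at 151, 152 and 152 TPM in A4KO (-0.63, SE 0.035, adjusted p = 1.95e-05). In CAKi-1 LAMP1 stayed between 192 and 205 TPM and did not pass, and LAMP2 went from 137 ± 5.87 TPM (SD, n = 4) to 152 ± 5.94 TPM (SD, n = 5), a change of 0.15 (SE 0.051, adjusted p = 0.0367) that did not pass without replicates 1 and 4 (0.12, adjusted p = 0.0828) or when any 1 WT library was left out. The effects on LAMP1 and LAMP2 differed between the lines by -0.66 (adjusted p = 1.89e-07) and 0.78 (adjusted p = 3.77e-07), and with neighbours taken off by 0.01 (adjusted p = 0.897) and 0.76 (adjusted p = 6.26e-07).

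NPC1, which exports cholesterol from the lysosome, and SCARB2, which carries glucocerebrosidase there, rose in both lines. With neighbours taken off, SCARB2 did not pass in 786-O (-0.08, adjusted p = 0.152), and NPC1 was higher there by 0.54 (adjusted p = 8.32e-05). NPC1 rose by 0.21 in CAKi-1 (SE 0.071, adjusted p = 0.0421; 0.13 and adjusted p = 0.104 without replicates 1 and 4, and lost when any 1 WT library was left out) and by 0.24 in 786-O (SE 0.038, adjusted p = 0.00195). SCARB2 rose by 0.26 in CAKi-1 (SE 0.065, adjusted p = 0.012; 0.17 and adjusted p = 0.0125 without replicates 1 and 4) and by 0.29 in 786-O (SE 0.047, adjusted p = 0.00196). MCOLN1, the calcium channel of the lysosome, rose in 786-O from 16.4 ± 0.567 TPM to 20.7 ± 0.536 TPM (SD, n = 3 each; 0.32, SE 0.042, adjusted p = 7.71e-04) and not in CAKi-1 (0.07, adjusted p = 0.363). CD63, a tetraspanin of late endosomes and exosomes, was the most abundant of the 6 and fell a little in both lines, by 0.17 on the log2 scale in CAKi-1 (SE 0.048, adjusted p = 0.0229) and by 0.11 in 786-O (SE 0.034, adjusted p = 0.0341). With neighbouring genes taken off, the CAKi-1 change was 0.03 (adjusted p = 0.626). The call of CD63 was lost without WT replicate 1 or 2 in CAKi-1, and in 786-O when any library other than WT replicate 1 was left out and under quantile or median scaling.

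In the values as deposited, no transcription factor passed as higher in either line. MITF stood at 15, 12.1, 13 and 11.6 TPM in CAKi-1 WT and at 7.31, 9.42, 9.76, 7.76 and 8.79 TPM in A4KO, without overlap, and fell by 0.54 on the log2 scale (SE 0.098, adjusted p = 0.0026). It was lower also without replicates 1 and 4 (-0.43, adjusted p = 0.00694). In 786-O MITF stood at 16.8, 15.3 and 16.6 TPM in WT and 16.9, 20 and 19.2 TPM in A4KO, again without overlap, but did not pass (0.19, adjusted p = 0.0553), and the effects differed by -0.73 (adjusted p = 5.29e-04). TFEB did not pass over all CAKi-1 libraries (-0.32, adjusted p = 0.119) but was lower without replicates 1 and 4 (-0.51, adjusted p = 0.00613), from 8.96 ± 0.947 TPM (SD, n = 4) in WT to 6 ± 0.817 TPM (SD, n = 3). TFE3, the most abundant of the 3 at 42.3 to 57.1 TPM, did not pass in either line. With neighbouring genes taken off, as described with the chromosomes, TFEB and MITF were higher in 786-O A4KO, by 0.23 (adjusted p = 0.0105) and 0.38 (adjusted p = 0.00532), and TFE3 was lower in CAKi-1 A4KO (-0.21, adjusted p = 0.00724). These factors are regulated mainly through their location in the cell, which mRNA does not show.

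**Figure D4:**
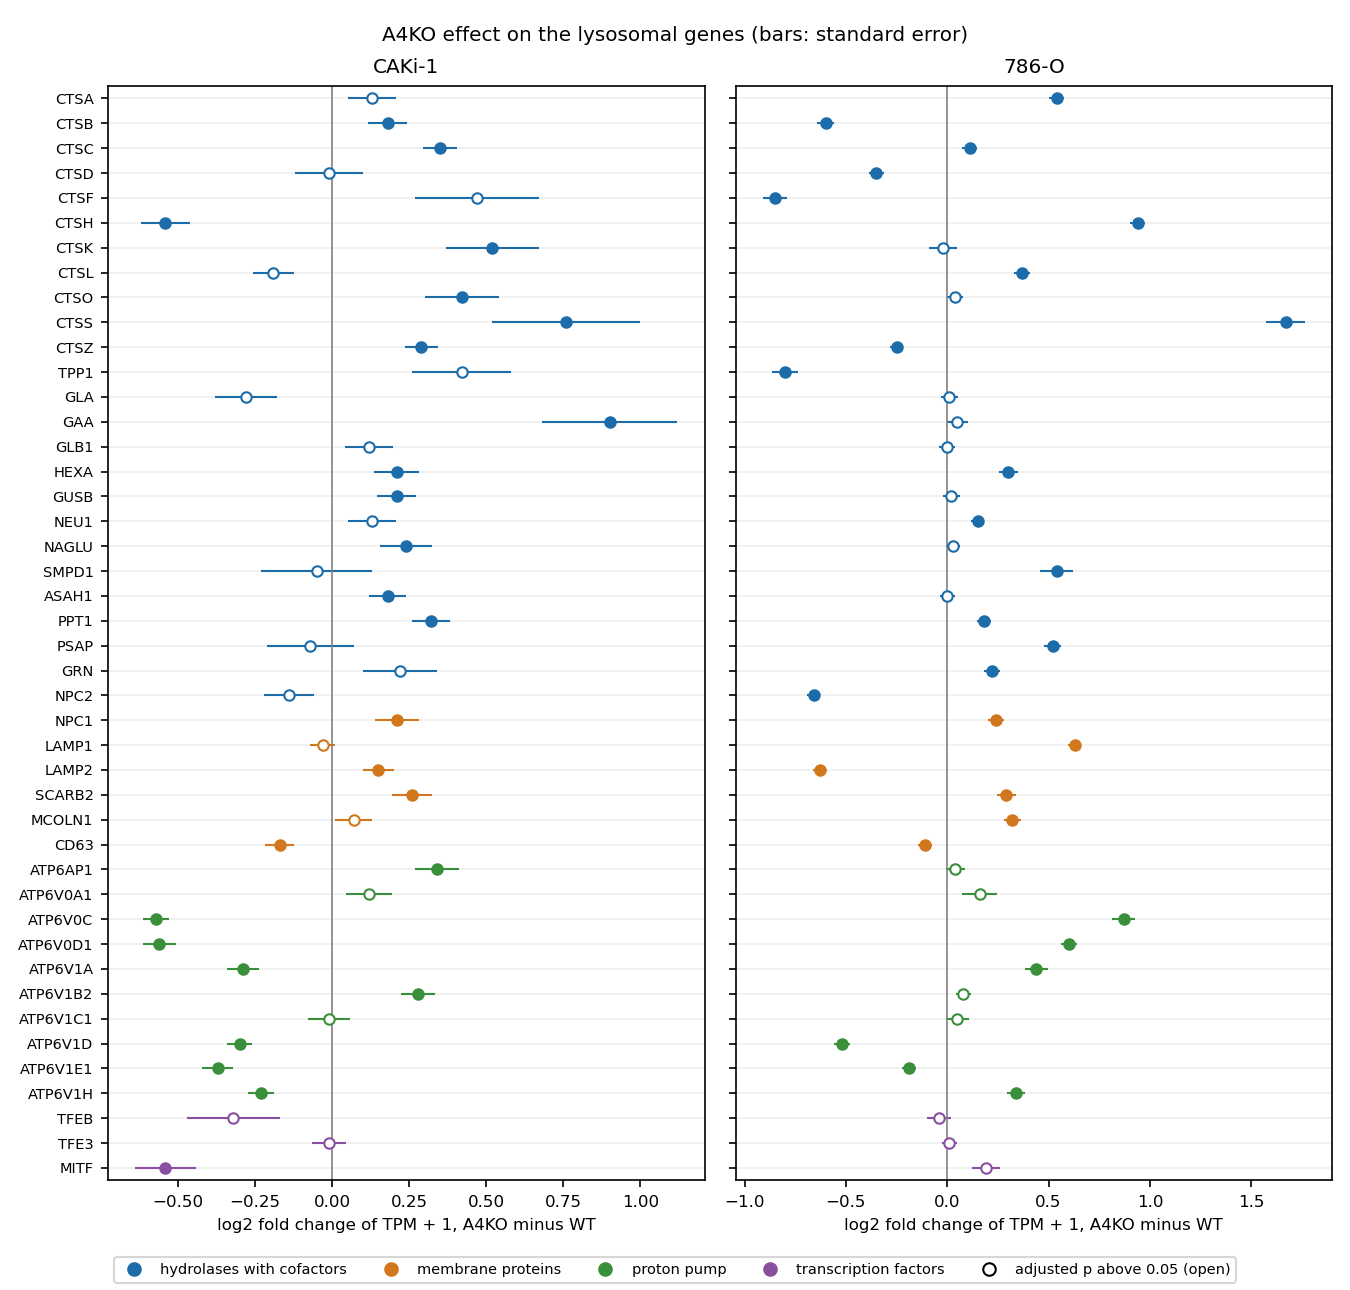
Log2 fold change of TPM + 1, A4KO minus WT, for each of the 44 genes in CAKi-1 and 786-O, coloured by role; bars are standard errors and open points did not pass (adjusted p above 0.05). CAKi-1 changes ran from -0.57 (ATP6V0C) to 0.90 (GAA) and 786-O changes from -0.85 (CTSF) to 1.67 (CTSS).

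The changes of the 44 genes were set side by side in the lines, and of these 9 passed in both lines in the same direction, 8 passed in both in opposite directions, 9 passed in CAKi-1 alone, 12 in 786-O alone and 6 in neither. Over the 15247 genes measured in both lines, 1834 genes (12%) passed in the same direction, 16.0% in opposite directions, 12% in CAKi-1 alone, 35.1% in 786-O alone and 24.9% in neither. Without replicates 1 and 4 of CAKi-1 A4KO, 7 of the 44 passed in the same direction and 8 in opposite directions, against 12.4% and 15.9% of all genes. With neighbouring genes taken off, the balance was another one, with 4 in the same direction and 15 in opposite directions, against 10.9% and 13.9% of all genes. The genes with the same direction were CTSC, CTSS, HEXA, PPT1, NPC1 and SCARB2, which were higher, and CD63, ATP6V1D and ATP6V1E1, which were lower. Of these, CTSC, CTSS, PPT1 and NPC1 kept it with neighbours taken off, when ATP6V1D and ATP6V1E1 passed in opposite directions, HEXA in neither line, SCARB2 in CAKi-1 alone and CD63 in 786-O alone. The genes with opposite directions were ATP6V0C, ATP6V0D1, ATP6V1A, ATP6V1H and CTSH, lower in CAKi-1 and higher in 786-O, and CTSB, CTSZ and LAMP2, the reverse. CTSB and LAMP2 passed in 786-O alone with neighbours taken off, the other 6 kept their directions, and CTSD, CTSF, CTSO, TPP1, NPC2, MITF, ATP6AP1, ATP6V1D and ATP6V1E1 joined them. Replicates 1 and 4 of CAKi-1 A4KO were kept when neighbours were taken off. Without those replicates, and with neighbours not taken off, CTSD was lower in CAKi-1 (-0.19), and CTSF (0.15) and TPP1 (0.19) did not pass. The effect of A4KO differed between the lines for 26 of the 44 genes (59.1%), where it did so for 55.1% of all genes, and for 31 (70.5%), against 59.5% of all genes, without those replicates. It did so for 34 (77.3%), against 51.0% of all genes, with neighbours taken off. Over all libraries, by role, such differences were found in 8 of the 10 pump subunits, 14 of the 25 hydrolases and cofactors, 3 of the 6 membrane proteins and 1 of the 3 transcription factors.

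Part of the 786-O pattern followed the position of the genes. The medians of some chromosomes shifted between WT and A4KO in that line. The median log2 fold change was -0.77 for 413 genes on chromosome 14, 0.474 for 204 genes on chromosome 13, 0.319 for 589 genes on chromosome 16 and -0.296 for 303 genes on chromosome 22. Other shifts were regional, as around SCARB2, where neighbours rose by 0.38 while the median of chromosome 4 was 0.053. In CAKi-1 the chromosome medians lay between -0.212 and 0.104. For each lysosomal gene, the median change of the 25 expressed genes on each side was therefore taken off. LAMP1 (chromosome 13, 113297239 to 113323672, hg38) rose by 0.63 in 786-O while its neighbours rose by 0.71, which left -0.08 (adjusted p = 0.116). NPC2 (chromosome 14, 74476192 to 74494177) and ATP6V1D (chromosome 14, 67294371 to 67360265) fell while their neighbours fell by 0.85 and 0.80 on the log2 scale, which left 0.19 (adjusted p = 0.00706) and 0.28 (adjusted p = 0.00166). ATP6V1E1 (chromosome 22, 17592136 to 17628749) likewise turned to 0.25 (adjusted p = 0.00247). For CTSL, HEXA, GRN and SCARB2 the remaining change was between -0.08 and 0.08 and did not pass. In all, 5 calls were lost in 786-O, 3 turned direction and 6 were gained, and 10 more changed in size by over 1.5 times.

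Changes that remained in 786-O included the following. CTSS kept 1.68 (adjusted p = 2.33e-05), LAMP2 -0.67 (adjusted p = 2.12e-05), CTSB -0.69 (adjusted p = 2.40e-05), CTSH 0.68 (adjusted p = 2.91e-05) and PSAP 0.53 (adjusted p = 5.81e-05). ATP6V0C and ATP6V0D1, both on chromosome 16, kept 0.62 (adjusted p = 1.38e-04) and 0.24 (adjusted p = 0.00177). CTSA, CTSD and TPP1 shrank as well, to 0.24, -0.21 and -0.49, while CTSC, CTSZ, NEU1, SMPD1, NPC1 and CD63 grew, to 0.30, -0.53, 0.54, 0.84, 0.54 and -0.23, with adjusted p of at most 0.00463. Beside TFEB and MITF, the calls gained were GLB1 (0.25, adjusted p = 0.002), CTSO (-0.27, adjusted p = 0.00213), NAGLU (-0.18, adjusted p = 0.00614) and ATP6AP1 (-0.15, adjusted p = 0.0259). With neighbours taken off, 6 pump subunits were higher and 1 lower in 786-O A4KO, and in CAKi-1 A4KO the counts remained at 2 higher and 6 lower. In CAKi-1, ATP6V0C kept -0.32 (adjusted p = 0.00111) and ATP6V0D1 -0.50 (adjusted p = 3.91e-04), and GAA kept 0.97 (adjusted p = 0.00572). There 6 calls were lost, those of CTSB, HEXA, NAGLU, ASAH1, LAMP2 and CD63, and 6 gained, those of CTSD, CTSF, TPP1, GLA (-0.40, adjusted p = 0.0416), NPC2 (-0.30, adjusted p = 0.03) and TFE3, while GUSB went to 0.41 and PPT1 to 0.18. After this step, 38.2% of all genes passed in CAKi-1 (20.8% higher and 17.4% lower) and 59.1% in 786-O (29.3% higher and 29.8% lower).

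**Figure D5:**
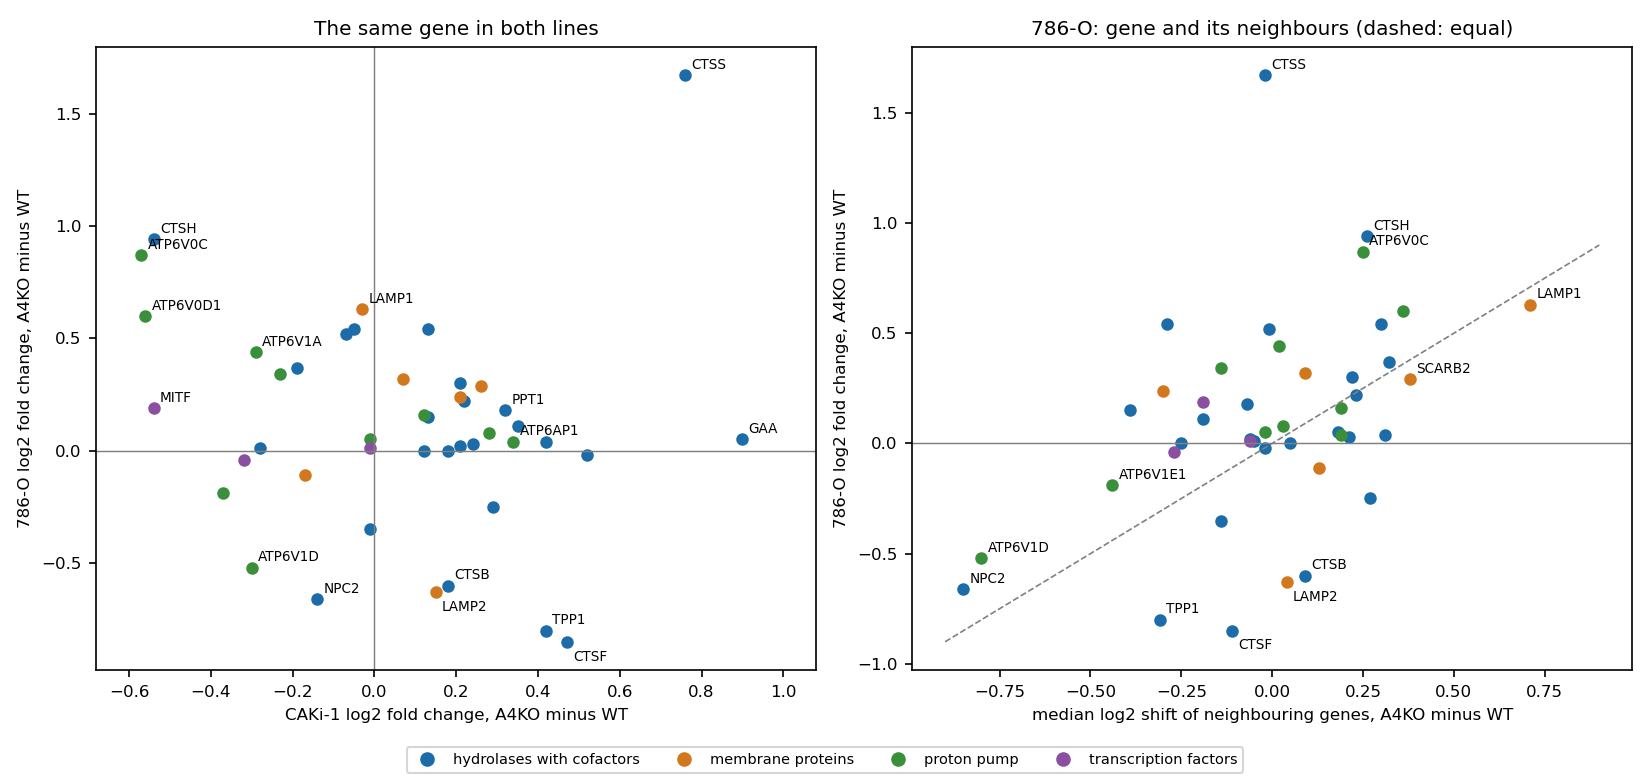
Log2 fold change, A4KO minus WT, of each of the 44 genes in 786-O against CAKi-1 (left), and in 786-O against the median shift of the 25 expressed genes on each side (right; the dashed line marks equal shifts). ATP6V0C and CTSH lay at the upper left of the first panel, and LAMP1 lay near the dashed line of the second, with NPC2 and ATP6V1D above it by 0.19 and 0.28 and CTSS (1.67, with neighbours at -0.02) far above it.

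Further genes of the lysosome and of autophagy were taken from lists by function, to be read against the 17.9% of all genes that were higher and 21.1% lower in CAKi-1, and the 27.5% and 33.5% in 786-O. Among 13 other pump subunits, 1 was higher and 5 lower in CAKi-1 A4KO (2 and 4 without replicates 1 and 4), and of the 12 measured in 786-O, 7 were higher and 3 lower. ATP6V0A4, the kidney form of the proton-path subunit, fell in CAKi-1 from 3.56 ± 0.375 TPM (SD, n = 4) to 1.54 ± 0.347 TPM (SD, n = 5), and ATP6AP2, the prorenin receptor, rose by 0.58 (SE 0.078, adjusted p = 5.35e-04). ATP6V0E2 and ATP6V1G1 rose in 786-O by 0.88 (SE 0.038, adjusted p = 8.12e-06) and 0.72 (SE 0.038, adjusted p = 1.52e-05). With neighbours taken off, ATP6V0E2 was at 0.79 and ATP6V1G1 at 0.44. Among 25 other hydrolases, 7 were higher and 4 lower in CAKi-1 (7 and 7 without replicates 1 and 4), and 6 were higher and 14 lower in 786-O. LIPA, the lysosomal acid lipase that the study is about, rose in CAKi-1 from 25.1, 24.3, 23.9 and 21.1 TPM to 33.3, 33, 33.8, 33.9 and 33.2 TPM (0.49, SE 0.055, adjusted p = 2.10e-04). Replicates 1 and 4 were not set apart for LIPA. In 786-O it went from 104, 104 and 95.8 TPM to 91.9, 93 and 92.4 TPM (-0.13, SE 0.044, adjusted p = 0.0436), and the effects differed by 0.62 (adjusted p = 1.29e-05). The 786-O call was lost when any library but WT replicate 3 was left out, at a pseudocount of 0.1, under median scaling, under the replicate block and with both lines in 1 fit. LIPA with neighbours taken off was 0.74 (adjusted p = 3.81e-05) in CAKi-1 and -0.21 (adjusted p = 0.00578) in 786-O. ARSA and ACP2, a sulfatase and a phosphatase, had the largest falls of that list in 786-O, to 15.5 TPM from 32.1 TPM and to 12.4 TPM from 24.6 TPM, with neighbours at -0.49 and -0.18 on the log2 scale.

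SORT1, sortilin, which carries PSAP and acid sphingomyelinase from the Golgi, rose in CAKi-1 from 7.78 ± 0.911 TPM (SD, n = 4) to 14 ± 0.531 TPM (SD, n = 5), by 0.78 (SE 0.07, adjusted p = 6.35e-05), and fell in 786-O from 26.5 ± 1.39 TPM to 5.87 ± 0.124 TPM (SD, n = 3 each), by 2.0 on the log2 scale (SE 0.047, adjusted p = 9.89e-07). RRAGD, a GTPase that links the lysosome to mTORC1, rose in both lines, by 0.87 in CAKi-1 (SE 0.1, adjusted p = 2.48e-04) and by 1.82 in 786-O (SE 0.11, adjusted p = 3.13e-05). Of 19 genes of mTORC1 and TFEB regulation, 1 was higher and 9 lower in CAKi-1, and 10 were higher and 5 lower in 786-O. RPTOR, the mTORC1 scaffold, and FNIP2, a partner of folliculin, were among those lower in CAKi-1 (-0.40 and -0.71) and higher in 786-O (0.65 and 0.85). With neighbours taken off, RPTOR and FNIP2 were at -0.34 and -0.61 in CAKi-1 and at 0.46 and 0.48 in 786-O. Among 16 autophagy genes, 2 were higher and 6 lower in CAKi-1, where GPNMB fell from 4.68 ± 0.492 TPM (SD, n = 4) to 1.55 ± 0.111 TPM (SD, n = 5) and MAP1LC3B, the LC3 protein of autophagosomes, fell by 0.60 on the log2 scale (SE 0.057, adjusted p = 8.13e-05). MAP1LC3B was at -0.35 with neighbours taken off. WIPI1 rose there by 0.75 (SE 0.13, adjusted p = 0.00198), and by 0.55 without replicates 1 and 4 (adjusted p = 4.80e-04). Of the 15 autophagy genes measured in 786-O, 7 were higher and 5 lower, and GABARAPL2, of the same protein family as LC3, rose by 0.89 (SE 0.049, adjusted p = 1.93e-05). GABARAPL2 was at 0.58 with neighbours taken off. Of 10 sorting genes, 3 were higher and 3 lower in CAKi-1 and 5 higher and 3 lower in 786-O. The 19 other membrane proteins gave 3 higher and 4 lower in CAKi-1 (4 and 6 without replicates 1 and 4), with TPCN1, an ion channel of endosomes and lysosomes, at 138 ± 52.6 TPM (SD, n = 5) from 55.6 ± 20.2 TPM (SD, n = 4), by 1.28 over all libraries (adjusted p = 0.00871) and 0.89 without those replicates (adjusted p = 0.0221), and 7 higher and 5 lower of the 18 measured in 786-O.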

How the data were processed

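Poly(A) RNA of 15 libraries was sequenced as paired-end reads. The authors used kallisto with hg38 and deposited a table of gene-level TPM for each line. This unit was inferred from the deposited values, which are not whole and sum to 961437 to 973887 per library. The sources do not say how transcript values became gene values, nor which genes were dropped. The study's methods name a nominal depth, but TPM does not keep the depth of each library, so no counting interval is given and tools for counts were not used.

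From these, log2(TPM + 1) was compared in each line (16296 genes in CAKi-1, 16188 in 786-O, no filter) by the moderated linear model of limma 3.58.1 (R 4.3.3). Its two-sided p-values were adjusted by Benjamini-Hochberg over every gene in that table. The difference between the lines was an interaction term over 15247 genes. The method was tested on simulated data. Groups and replicates came from the labels. Values of the lines come from separate tables, so their levels were not tested against each other.

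The members and lists were chosen with earlier results of these data known. A fold change, its SE and adjusted p are given for members that passed, except HEXA, GUSB, NAGLU and ASAH1 in CAKi-1, which are given as ranges. Values are also given for ANGPTL4 and LIPA, and for up to 3 genes per further list and line. Neighbour-centred values subtract, in each library, how far the 25 nearest genes up and 25 down the chromosome deviated in the median, counting genes with a mean log2 of at least 1 (positions from GENCODE release 44). Other alternatives were a pseudocount of 0.1, a mean TPM of at least 1, quantile and median scaling, eBayes with trend and robust options, a block for the replicate number, every library dropped in turn, CAKi-1 A4KO replicates 1 and 4 left out, both lines in 1 fit, and an added log2 threshold of 1. Promoter sequences are from RefSeq.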

Additional observations from a re-analysis of the deposited data

Results flagged for a closer look

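In 88 groups of 4 or 5 libraries, 3 members had a library set apart from the others of its group, where chance gives about 1 in 20 groups. CTSH was lowest in CAKi-1 WT replicate 4, at 31.2 TPM, GRN was highest in CAKi-1 WT replicate 4, at 338 TPM, and ATP6V1B2 was highest in CAKi-1 A4KO replicate 4, at 67.1 TPM.

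For 26 members the log2 effect of A4KO in CAKi-1 minus that in 786-O passed the interaction test in limma, which is 59.1% of them, where 55.1% of all genes passed. Among pump subunits the differences were -1.43 for ATP6V0C, -1.16 for ATP6V0D1, -0.73 for ATP6V1A, -0.57 for ATP6V1H, -0.18 for ATP6V1E1, 0.21 for ATP6V1D, 0.20 for ATP6V1B2 and 0.30 for ATP6AP1. Among cathepsins and peptidases they were -1.48 for CTSH, -0.91 for CTSS, -0.56 for CTSL, -0.40 for CTSA, 0.24 for CTSC, 0.54 for CTSK, 0.55 for CTSZ, 0.78 for CTSB, 1.22 for TPP1 and 1.32 for CTSF. Among the other soluble proteins they were -0.60 for SMPD1, -0.59 for PSAP, 0.52 for NPC2 and 0.86 for GAA. Among membrane proteins and factors they were -0.66 for LAMP1, -0.25 for MCOLN1, 0.78 for LAMP2 and -0.73 for MITF. With neighbouring genes taken off, the difference turned for ATP6V1D (-0.57, adjusted p = 4.66e-06) and NPC2 (-0.49, adjusted p = 0.00457), grew for ATP6V1E1 (-0.55, adjusted p = 1.36e-05) and ATP6AP1 (0.60, adjusted p = 5.18e-04), shrank for CTSA (-0.25, adjusted p = 0.0212), ATP6V0C (-0.94, adjusted p = 1.29e-07) and ATP6V0D1 (-0.73, adjusted p = 5.32e-06), and did not pass for LAMP1 (0.01), CTSC (0.16), CTSL (-0.20), PSAP (-0.38) and ATP6V1B2 (0.14).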

How the results depend on the processing

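No alternative moved the counts of CAKi-1 pump subunits (2 higher, 6 lower) except the added log2 threshold of 1, which left 0 and 0 of them, 0 and 0 hydrolases and 0 members in each direction in CAKi-1 (360 higher and 183 lower of all genes), and in 786-O 1 member higher, the hydrolase CTSS, with 0 lower and 0 pump subunits (393 higher and 840 lower of all genes). The CAKi-1 count of members higher (17) was 11 at a pseudocount of 0.1, 10 without A4KO replicates 1 and 4, where 14 were lower, and 7 to 19 with each library left out, and it fell most without WT replicate 3 (7), WT replicate 1 or 2 (8 each) and A4KO replicate 1 (9). It was 10 without A4KO replicate 2 or 4 and 11 without WT replicate 4. Of all 16296 genes, 2916 were higher and 3432 lower in CAKi-1 A4KO with all libraries. Without A4KO replicates 1 and 4, 2714 of them were higher and 3613 lower. With each library left out, 2297 to 3019 of all genes were higher, with the fewest without WT replicate 3. The count of hydrolases higher (12) was 7 without A4KO replicates 1 and 4 and 4 to 14 with each library left out, and that of hydrolases lower (1) was 5 without A4KO replicates 1 and 4, 3 with a mean TPM of at least 1, with trend and robust, neighbour-centred or with both lines in 1 fit, 2 under the replicate block and 1 to 3 with each library left out. The members whose effect differed between the lines numbered 21 to 30 with each library left out. The CAKi-1 pump median was -0.192 by quantile normalization and -0.213 neighbour-centred. In 786-O the hydrolase median was 0.049 at a pseudocount of 0.1, 0.116 by quantile normalization, 0.068 with 1 median, 0.06 neighbour-centred and 0.023 to 0.058 with each library left out. There the membrane protein median was 0.309 with 1 median, -0.082 neighbour-centred and 0.235 to 0.29 with each library left out, and the pump median was 0.166 by quantile normalization, 0.161 with 1 median, 0.244 neighbour-centred and 0.077 to 0.16 with each library left out, with 1 pump subunit lower when neighbour-centred. Neighbour-centring turned the direction of CD63 in CAKi-1 (0.03) and of GRN (-0.01), NPC2 (0.19), LAMP1 (-0.08), SCARB2 (-0.08), ATP6V1D (0.28) and ATP6V1E1 (0.25) in 786-O. By construction it takes off the shift of nearby genes. In the other cases the cause was not tested.

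Replicate numbers did not pair the libraries, since deviations of same-numbered libraries correlated at -0.06 to 0.14 in CAKi-1 and at -0.05 to 0.02 in 786-O. With the replicate block, 13 members were higher and 9 lower in CAKi-1, and 18 and 9 in 786-O. The DESeq2 and edgeR alternatives were not run, since TPM are not counts. The study's methods name a low nominal depth for all libraries, so scarce genes such as CTSF and CTSK in 786-O rest on few reads, and since TPM keeps no counts of each library their counting error cannot be given. The log2 fold change of CTSF there was -1.73 at a pseudocount of 0.1.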
